A study of Mus musculus with 2 samples.

Results

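Oxidative phosphorylation genes encode the respiratory chain and the ATP synthase of the mitochondrion. They were chosen by symbol, as mt- genes, Nduf, Cox4 to Cox8, Uqcr, Sdha to Sdhd and Atp5 genes. Of 31053 features in the deposited tables, 106 matched, 13 encoded by mitochondrial DNA and 93 by the nucleus. At least 10 CPM in a library (UMIs of a gene per 1000000 UMIs of the summed cells, a UMI being a tag that counts a captured transcript) were reached by 97 of them, all 13 mt-encoded and 84 nuclear genes. The choice used symbols and a minimum level in either library, and it was made with earlier results of these data known.

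The study compared microglia, the resident macrophages of the brain, with and without the transcription factor IRF8, by droplet single-cell RNA sequencing of cells isolated without enzymes and sorted from untreated female C57BL/6 mice aged 3 months. One library was titled WT and the other IRF8KO, each from a pool of 3 mice, so there was 1 library per group, no replicate and no test of genotype. For the second sample the genotype field says WT, against its title, and no allele is named, so its cells are called IRF8KO-labelled throughout. Irf8 itself stood at 794 CPM in WT cells and 669 CPM in the other library, which checks nothing while the altered part of the gene is unknown. Cells were compared after a filter on depth and after removal of cells rich in neutrophil transcripts, which left 3304 of 3504 WT barcodes and 5007 of 5303 IRF8KO-labelled barcodes. The libraries shared 5 cell barcodes.

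The summed cells held 18543061 UMIs (WT) and 18980263 UMIs (IRF8KO-labelled). The median cell had 3204.5 and 2933 UMIs. All 11 microglia markers were above 10 CPM in WT, and 10 were in IRF8KO-labelled cells, where Sall1 stood at 2.85 CPM and 1 of 11 (Fcrls) was higher than in WT. The 9 border macrophage markers summed to 14.1 CPM in WT, where 5 of them (Cd163, Clec12a, Lyve1, F13a1 and Ms4a7) were at 0, and to 2852 CPM in IRF8KO-labelled cells. Pf4 (1462 CPM), Ms4a7 (649 CPM), Mrc1 (503 CPM) and Clec12a (209.96 CPM) made up most of that sum, 4 of the 9 stayed under 10 CPM, among them Lyve1 at 0.105 CPM, and Folr2 was lower than in WT (1.73 and 0.211 CPM). The part of these cells' origin or state in the results below was not tested. T and NK cell markers were at 0 in both libraries. Apoe took 88320.5 CPM in IRF8KO-labelled cells and 478 CPM in WT, and the median log2 ratio of IRF8KO over WT CPM was -0.28 over the 8859 genes that reached 10 CPM. Medians are therefore also given as their distance above that all-gene median.

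The respiratory chain passes electrons from NADH through complexes I, III and IV to oxygen, and complex II feeds in electrons from succinate. The proton gradient built on the way drives the ATP synthase, complex V. Mitochondrial DNA encodes the hydrophobic core of complexes I, III, IV and V, and its transcripts arise by processing of long precursors, while every other subunit is made in the cytosol from nuclear genes and imported. Complex II is wholly nuclear. Macrophages are known to shift between respiration and glycolysis when they are activated.

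Transcripts encoded by mitochondrial DNA took a larger share of UMIs in IRF8KO-labelled cells. Together they made up 2.17% of all WT UMIs and 3.93% of those from IRF8KO-labelled cells, a log2 ratio of 0.86 (95% counting interval 0.85 to 0.86). All 13 genes were higher (12 under 4 other choices or weights of cells, given below for mt-Nd5), against a background of 25.1% of all 8859 genes. Their median log2 ratio was 0.78 (0.75 to 0.80), which is 1.06 above the all-gene median, and 8 of 13 were at least 1.5-fold higher, against 8.67% of all genes. The intervals, here and below, cover counting error alone and say nothing of the spread between mice or preparations. The interval of a list median is given by the medians of its members' bounds.

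**Figure D1:**
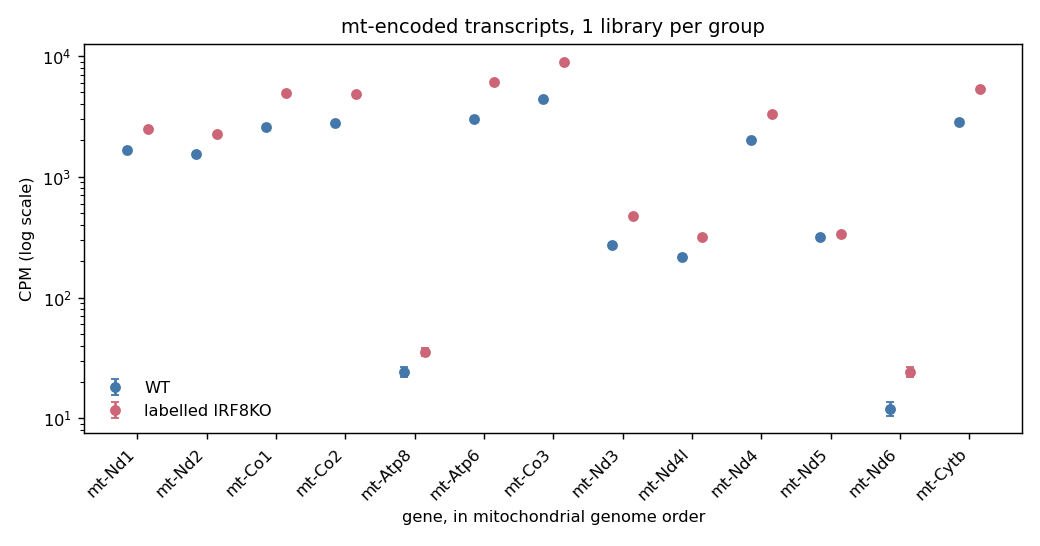
CPM of each mt-encoded gene in the WT library (blue) and in IRF8KO-labelled cells (red), on a log scale, in the order of the genes along the mitochondrial genome. Points are the summed cells of 1 library with exact 95% Poisson intervals, which are mostly smaller than the points; mt-Co3 went from 4371 to 8926 CPM, whereas the points of mt-Nd5 lie close together.

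Log2 ratios of the mt-encoded genes ran from 0.08 for mt-Nd5 to 1.03 for mt-Co3. The complex IV gene mt-Co3, for a core subunit of cytochrome c oxidase, had 4371 CPM in WT against 8926 CPM in IRF8KO-labelled cells, a log2 ratio of 1.03 (1.02 to 1.04). The catalytic subunit gene mt-Co1 went from 2567 to 4928 CPM, a ratio of 0.94, and mt-Co2, which receives electrons from cytochrome c, from 2789 to 4805 CPM, a ratio of 0.78. For complex V, mt-Atp6, which forms part of the proton channel, went from 3012 to 6065 CPM (1.01). The cytochrome b gene mt-Cytb of complex III went from 2859 to 5319.95 CPM (0.90). The short gene mt-Atp8 had 24.1 and 35.5 CPM (0.56, 0.38 to 0.73), and it overlaps mt-Atp6 in the genome, so UMIs of this pair may have been split between them by the authors' counting.

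The complex I genes, which encode the membrane arm that pumps protons, had a lower median of 0.56. The genes mt-Nd1 (1674 and 2465 CPM) and mt-Nd2 (1540.3 and 2268 CPM), near the start of the coding region, both had a log2 ratio of 0.56. The overlapping pair mt-Nd4l and mt-Nd4 had ratios of 0.53 and 0.70, and mt-Nd3 had 0.80. The gene mt-Nd6 is the single protein-coding gene of the opposite strand, and its 223 and 459 UMIs gave a ratio of 1.01 (0.77 to 1.25). The gene mt-Nd5 differed least, at 319 CPM in WT against 337 CPM in IRF8KO-labelled cells (0.08, 0.03 to 0.13). Its ratio turned negative, to -0.08 with equal weight for each cell, -0.09 with cells of at most 5% mt-encoded UMIs, -0.08 without the 5% of cells with the most UMIs and -0.03 with cells thinned to 2000 UMIs. In each of these settings 12 of 13 mt-encoded genes were higher. Within the mt-encoded UMIs, mt-Nd5 took 1.47% in WT and 0.859% in IRF8KO-labelled cells, while mt-Co3 took 20.2% and 22.7%.

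The nuclear genes shifted less and in both directions. They took 0.963% of UMIs in WT and 1.15% in IRF8KO-labelled cells, a log2 ratio of 0.26 (0.25 to 0.27). Of the 84 genes, 53 were higher, against the background of 25.1%, and 73 were higher under TMM scaling, where the background was 47.4%. Their median log2 ratio was 0.11 (0.03 to 0.20), which is 0.39 above the all-gene median. Intervals lay wholly above 0 for 43 genes, against 17.3% of all genes, and wholly below 0 for 22, against 62.7%. A change of 1.5-fold or more was reached by 6 of 84 genes upwards, against 8.67% of all genes, and by 1 downwards, against 22.7%. Among the 6, the tissue isoforms Cox6a2 and Cox6b2 passed the minimum through IRF8KO-labelled cells alone. Without these isoforms, 4 of 82 genes were at least 1.5-fold higher and 1 at least 1.5-fold lower. In that set, 51 were higher and the median was 0.09. The count of 6 became 26 under TMM scaling and 12 with totals that left out mt-encoded and ribosomal protein genes. The share of all genes at this call was not counted under these scalings. Measured from the all-gene median, 27 of 84 were at least 1.5-fold above it, against 12.8% of all genes, and 0 at least 1.5-fold below, against 11.8%.

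The mean WT cell held 121.7 mt-encoded and 54.0 nuclear UMIs of these genes among 5612 UMIs, and the mean IRF8KO-labelled cell held 148.8 and 43.6 among 3791. The libraries differed in their mix of depths: 192 of 3304 WT cells and 72 of 5007 IRF8KO-labelled cells lay above 16000 UMIs. Those cells held means of 299 and 244 nuclear UMIs. In each of the 4 shallower ranges the nuclear mean was higher in IRF8KO-labelled cells, from 13.1 against 17.8 UMIs at 1000 to 2000 UMIs per cell to 103 against 116 at 8000 to 16000 (WT first). Fewer captured transcripts per cell and less RNA per cell cannot be told apart here.

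**Figure D2:**
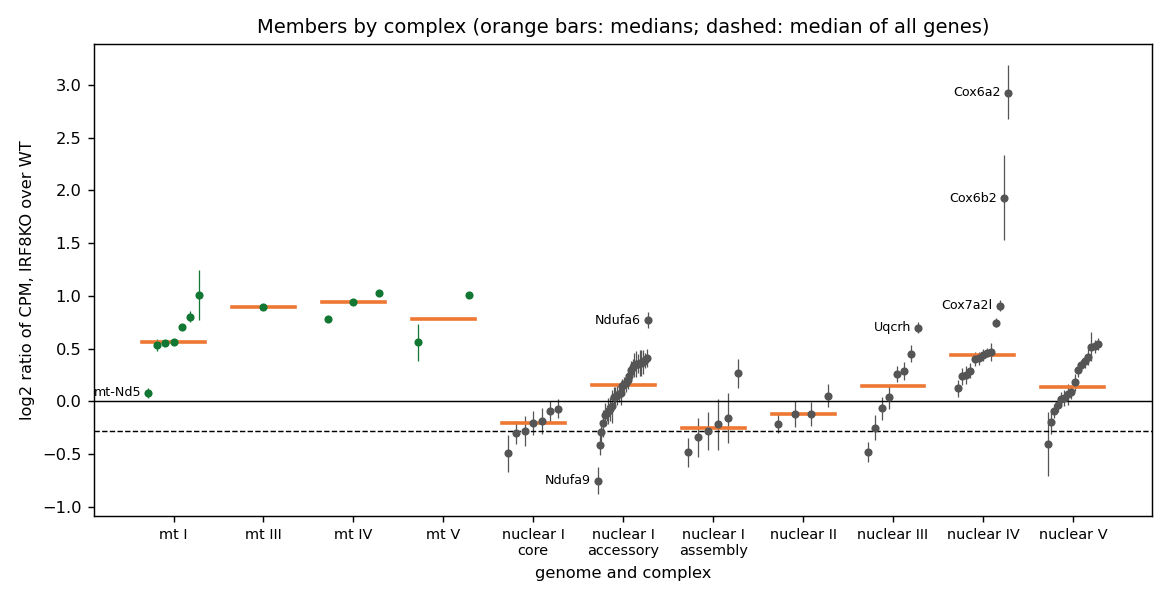
Log2 ratio of CPM, IRF8KO over WT, of each member with at least 10 CPM in a library, by genome and complex. Each point is a gene with its exact 95% counting interval, orange bars are medians, and the dashed line is the median of all genes (-0.28); Ndufa4 is drawn with the accessory subunits of complex I. The medians of the mt-encoded groups lie above those of the nuclear groups, mt-Nd5 lies lowest among mt-encoded genes, and nuclear complex IV lies highest among the nuclear groups, with Cox6a2 far above the rest.

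Complex I has the most nuclear members, and its core and accessory subunits had different medians. The core subunits hold the flavin and the iron-sulphur clusters that carry electrons. All 7 of them were lower in IRF8KO-labelled cells (median -0.21, which is 0.07 above the all-gene median), against 74.9% of all genes. Under TMM scaling, however, 4 of 7 were higher, against 47.4% of all genes. The lowest was Ndufv1, the subunit that binds NADH and flavin, at 33.3 CPM in WT against 23.7 CPM in IRF8KO-labelled cells (-0.49, -0.67 to -0.32). The 29 accessory subunits had a median of 0.16, and 20 of them were higher (26 under TMM scaling), against 25.1% of all genes (47.4%). They held the extremes of this complex: Ndufa6 went from 115.8 to 197 CPM (0.77, 0.69 to 0.85), and Ndufa9, which lies near the quinone site, from 70.4 to 41.8 CPM (-0.75, -0.88 to -0.62). Next highest was Ndufb11, with 109 and 145 CPM (0.41), and Ndufa13, which had the most UMIs, stood at 187 and 209.7 CPM (0.16).

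Of 8 Ndufaf assembly factors, which help build complex I and are not part of it, 6 reached 10 CPM. Their median was -0.25, which is 0.03 above the all-gene median. Ndufaf4 (56.8 and 40.7 CPM, -0.48) and Ndufaf7 (29.6 and 23.3 CPM, -0.34) had the lowest ratios. Ndufaf8 alone was higher (43.0 and 51.7 CPM, 0.26), and Ndufaf2, at 16.8 and 15.1 CPM, had an interval that includes 0. Ndufaf6 (8.95 and 7.43 CPM) lay just under the minimum and Ndufaf5 (3.13 and 2.79 CPM) further below it. The members nearest above it, by their higher library, were Atp5s (11.4 CPM) and Cox6b2 (13.5 CPM).

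Complex II, succinate dehydrogenase, is also an enzyme of the citric acid cycle. Its 4 genes had a median of -0.12, which is 0.16 above the all-gene median. The flavoprotein gene Sdha had 117 CPM in WT against 101 CPM in IRF8KO-labelled cells (-0.21), the iron-sulphur subunit gene Sdhb 71.7 and 66.1 CPM (-0.12), and the membrane anchor genes Sdhc and Sdhd had ratios of -0.12 and 0.05. Sdha, Sdhb and Sdhc all changed side under TMM scaling, to 0.04, 0.14 and 0.13.

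Complex III, the cytochrome bc1 complex, had a median of 0.15 over the 8 nuclear genes chosen by symbol. Of these, 5 were higher (7 under TMM scaling), against 25.1% of all genes (47.4%). The hinge protein gene Uqcrh, which lies between cytochrome c1 and cytochrome c, had 231 CPM in WT against 374 CPM in IRF8KO-labelled cells (0.70, 0.64 to 0.75), and Uqcr11 followed with 115 and 157 CPM (0.45). Uqcrq was lowest, at 121 and 87.0 CPM (-0.48, -0.57 to -0.39). The core protein gene Uqcrc1 stood at -0.25, or 0.0028 under TMM scaling. The cytochrome c1 gene Cyc1, also of complex III, is not matched by the symbols and is counted below with the electron carriers. It had 82.7 CPM in WT against 63.3 CPM in IRF8KO-labelled cells (-0.39, -0.50 to -0.28, and -0.13 under TMM scaling).

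Nuclear complex IV genes were the group with the largest shift. All 13 were higher in IRF8KO-labelled cells under each scaling tried, against 25.1% of all genes, or 47.4% under TMM scaling. Their median was 0.44 (0.38 to 0.50), which is 0.72 above the all-gene median. Without the tissue isoforms Cox6a2 and Cox6b2, 11 of 11 were higher and the median was 0.41. The most UMIs came from Cox4i1, a regulatory subunit present in most tissues, at 404 CPM in WT against 677 CPM in IRF8KO-labelled cells (0.75, 0.70 to 0.79). The lowest ratios were those of Cox5a (119 and 129 CPM, 0.12) and Cox5b (125 and 148 CPM, 0.24). Cox7a2l, named here after its value was seen, encodes a factor that joins complexes III and IV in supercomplexes, and C57BL/6 mice are known to carry a short form of it. It had 270.02 CPM in WT against 507 CPM in IRF8KO-labelled cells (0.91, 0.86 to 0.96). Ndufa4 is counted above by its symbol as complex I, although its protein is held to be a subunit of complex IV, and it had 181 and 200.4 CPM (0.14).

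For the ATP synthase, the median of 16 nuclear genes was 0.13, which is 0.41 above the all-gene median. Of these genes, 12 were higher (15 under TMM scaling), against 25.1% of all genes (47.4%). The small subunits Atp5e, at 217 CPM in WT against 316 CPM in IRF8KO-labelled cells (0.54), and Atp5l, at 193 and 278 CPM (0.52), had the highest ratios. The 3 genes of the catalytic head and its shaft, Atp5a1, Atp5b and Atp5c1, lay between -0.04 and 0.03 with intervals that include 0. Under TMM scaling these 3 genes stood at 0.28, 0.22 and 0.29. Atp5g2, which encodes the c-ring subunit, had 292 and 370.4 CPM (0.34), and its paralogue Atp5g3, encoding the same mature protein, 77.2 and 67.4 CPM (-0.20, and 0.06 under TMM scaling). Atp5s, a related protein, was lowest at 11.4 and 8.64 CPM (-0.40).

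Promoters were compared for letters that the transcription factors NRF1 and GABP, known regulators of respiratory genes, recognise. The RefSeq promoter table (GRCm38.p6) held 72 of the 84 nuclear members, and Cox6a2 had no entry. The NRF1 motif was searched on both strands with any base allowed at 1 of its 10 places, and the 2 longer runs of capitals in Cox6a1 below are matches. It occurred in the 250 bases before the start of 14 of 72 members (19.4%), of 10.7% of 7030 genes with at least 10 CPM and of 4.23% of all 27025 genes. The ETS motif CCGGAAG, read by GABP and other ETS factors, also occurred in 14 of 72 (19.4%), against 18.1% and 7.83%. A YY1 motif, searched in the same windows, occurred in 1 of 72 members (1.39%), against 0.996% of genes with at least 10 CPM and 0.359% of all genes. Members with the NRF1 motif had a median log2 ratio of 0.07 and those without 0.15. With the ETS motif they were 0.32 and 0.07. The windows differ in base composition, and a match describes letters only. The 3 promoters below show the common partner of Cox6a2 and the nuclear members with the highest and the lowest log2 ratio outside the tissue isoforms, 5′ to 3′ along the gene, with matches to either motif in capitals. Cox6a1 (chr5:115348959-115349208, - strand) holds 2 NRF1 matches and 1 ETS match, and Cox7a2l (chr17:83514334-83514583, - strand) and Ndufa9 (chr6:126849145-126849394, - strand) hold neither in this window. The Cox7a2l window lies inside the GENCODE M21 span of that gene (chr17:83501918-83517330), so the bases before its outermost annotated start are not shown.
Cox6a1: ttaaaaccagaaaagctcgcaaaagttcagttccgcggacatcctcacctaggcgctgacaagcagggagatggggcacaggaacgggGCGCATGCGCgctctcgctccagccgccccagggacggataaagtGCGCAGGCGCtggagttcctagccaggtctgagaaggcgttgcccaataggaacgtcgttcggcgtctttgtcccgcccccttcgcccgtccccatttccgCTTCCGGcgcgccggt
Cox7a2l: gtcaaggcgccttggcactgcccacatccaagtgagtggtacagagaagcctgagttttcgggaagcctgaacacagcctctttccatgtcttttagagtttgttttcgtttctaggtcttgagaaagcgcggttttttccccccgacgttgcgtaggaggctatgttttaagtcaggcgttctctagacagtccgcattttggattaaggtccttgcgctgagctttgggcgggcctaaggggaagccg
Ndufa9: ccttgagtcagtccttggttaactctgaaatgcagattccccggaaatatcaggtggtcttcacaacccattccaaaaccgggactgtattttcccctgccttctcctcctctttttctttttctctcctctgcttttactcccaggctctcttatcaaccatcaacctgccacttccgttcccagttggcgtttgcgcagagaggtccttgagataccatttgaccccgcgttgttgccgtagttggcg

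The comparison of mt-encoded with nuclear UMIs of the same complex does not depend on how libraries are scaled. Over all complexes, WT cells had 2.25 mt-encoded UMIs for each nuclear one and IRF8KO-labelled cells had 3.41, 1.51 times as many (1.503 to 1.525), a log2 odds ratio of 0.60 (0.59 to 0.61). The shift was in the same direction in each of the 4 complexes with both genomes. It was smallest in complex IV, at 0.39 (0.37 to 0.41), where the nuclear genes were higher too. Complex I gave 0.50 (0.48 to 0.52), complex III 0.63 (0.59 to 0.66) and complex V 0.78 (0.75 to 0.80). The 1 mt-encoded gene of complex III and the 2 of complex V had higher log2 ratios than every nuclear gene of their complex. In complex V, mt-Atp8 (0.56, 0.38 to 0.73) lay only just above Atp5e (0.54, 0.49 to 0.60), with overlapping intervals. In complex IV, no mt-encoded gene lay above every nuclear gene, and 3 nuclear genes (Cox6a2, Cox6b2 and Cox7a2l) lay above the lowest mt-encoded gene. In complex I, 18 of 43 nuclear genes lay above mt-Nd5.

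The shift of mt-encoded against nuclear UMIs was not seen in the shallowest cells. Among cells with 1000 to 2000 UMIs (285 WT and 498 IRF8KO-labelled cells), the log2 odds ratio was -0.05 (-0.11 to 0.02). There, mt-encoded genes took 2.38% and 2.96% of UMIs and nuclear genes 0.798% and 1.03%. In cells with 2000 to 4000 UMIs, which hold most cells of both libraries, the odds ratio was 0.59 (0.57 to 0.61), and the shares were 2.23% and 3.896% for mt-encoded genes. Deeper cells gave 0.61 (4000 to 8000 UMIs), 0.60 (8000 to 16000) and 0.78 (16000 and above). Depth and mt-encoded share are both part of the cell filter, and their part in these values was not tested beyond these ranges.

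**Figure D3:**
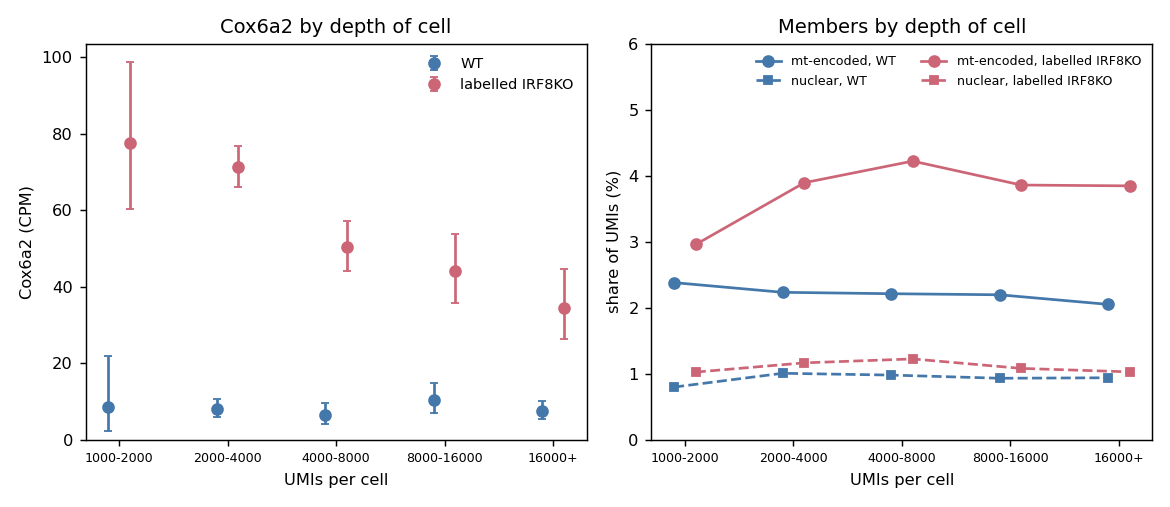
Left, Cox6a2 CPM in cells grouped by UMIs per cell, with exact 95% Poisson intervals; right, the share of UMIs in mt-encoded (circles) and nuclear (squares) members in the same cells, WT in blue and IRF8KO-labelled cells in red. The mt-encoded share in IRF8KO-labelled cells runs from 2.96% in the shallowest cells to 4.22% at 4000 to 8000 UMIs, and Cox6a2 is at 77.7 CPM in the shallowest and 34.6 CPM in the deepest cells.

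Cell by cell, the mt-encoded share separated the libraries in part and the nuclear share little. After each cell was thinned to 2000 UMIs, the median mt-encoded share was 2.1% in 3019 WT cells (quartiles 1.55 and 2.75) and 3.8% in 4509 IRF8KO-labelled cells (2.65 and 4.95). Shallower cells, 285 in WT and 498 in the other library, were left out. Of the IRF8KO-labelled cells, 46.8% (exact binomial interval 45.3 to 48.2) exceeded 3.9%, the value under which 95% of WT cells lay, and 43.6% did without thinning. For nuclear genes the medians were 0.95% and 1.15%, and 15.5% (14.4 to 16.5) exceeded the corresponding WT value of 1.45%.

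**Figure D4:**
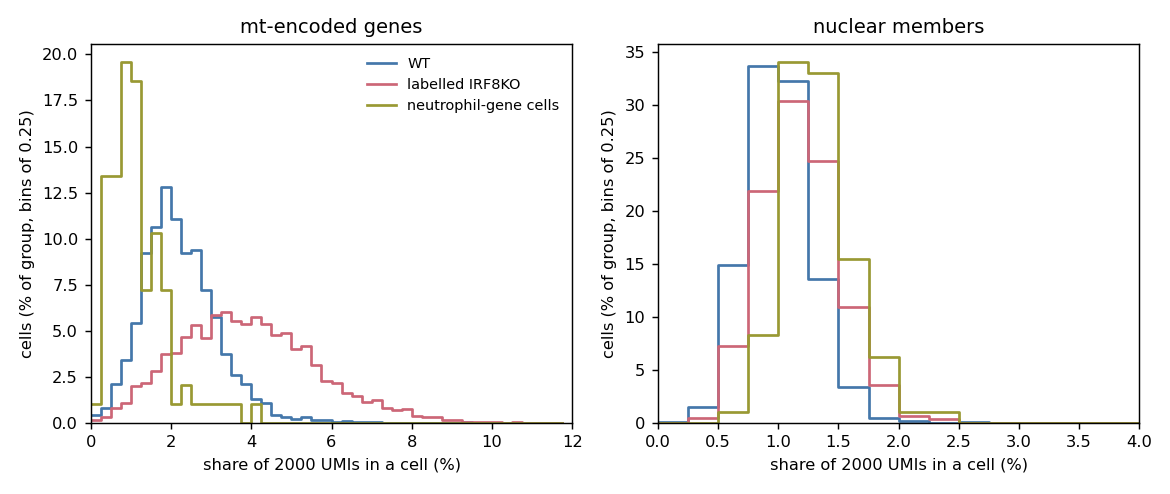
Distribution over cells of the share of 2000 UMIs taken by mt-encoded genes (left) and by nuclear members (right), as percent of cells in bins of 0.25 percentage points, for WT cells, IRF8KO-labelled cells and the cells rich in neutrophil transcripts. The mt-encoded medians are 2.1%, 3.8% and 1.0%, the last lowered by the 6 neutrophil genes that took 39.0% of those cells' UMIs, whereas the nuclear distributions overlap broadly.

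Cox6a2 stood apart from all other members. It encodes the isoform of cytochrome c oxidase subunit VIa known from heart and skeletal muscle, in place of the common isoform encoded by Cox6a1. WT cells held 146 Cox6a2 UMIs, or 7.87 CPM (6.65 to 9.26), and IRF8KO-labelled cells held 1137, or 59.9 CPM (56.5 to 63.5). The level was 7.61-fold higher (6.40 to 9.10), a log2 ratio of 2.93 (2.68 to 3.19), which is 3.21 above the all-gene median and at the 98.1 percentile of 8859 genes. It passed the minimum through IRF8KO-labelled cells alone. Cox6a1 had 102 and 142 CPM, a log2 ratio of 0.47 (0.38 to 0.56).

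The Cox6a2 UMIs were spread over many cells. In WT, 129 of 3304 cells had a UMI (3.904%), and in IRF8KO-labelled cells 763 of 5007 did (15.2%), with at most 8 in a cell. The 50 cells with the most Cox6a2 held 18.5% of the UMIs of that library. After thinning, 1.32% (0.948 to 1.80) of WT cells and 10.2% (9.33 to 11.1) of IRF8KO-labelled cells had a UMI. Cells rich in neutrophil transcripts, all from the IRF8KO-labelled library, had 2 UMIs in 98 cells (2.37 CPM, 0.287 to 8.57) and none in 97 thinned cells; their median depth was 7057.5 UMIs. No cells of another type were at hand in WT, so the background of free RNA under the WT level was not measured. Summed over thinned IRF8KO-labelled cells, the common isoform Cox6a1 stood at 159 CPM in those with a Cox6a2 UMI and at 147 CPM in those without. These summed levels do not show both transcripts in the same cell.

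In IRF8KO-labelled cells the Cox6a2 level was lower in deeper cells. It stood at 77.7 CPM (60.2 to 98.6) in cells with 1000 to 2000 UMIs, 71.2 at 2000 to 4000, 50.4 at 4000 to 8000, 44.1 at 8000 to 16000 and 34.6 (26.3 to 44.6) above. WT cells held 6.38 to 10.3 CPM over the same ranges, with overlapping intervals. The log2 ratio between the libraries was 3.18 (1.76 to 5.10) in the shallowest cells, where WT had 4 Cox6a2 UMIs. It was 2.09 (1.48 to 2.76) at 8000 to 16000 UMIs and 2.20 (1.62 to 2.79) above. The interval of the shallowest cells contains the other 2 given here.

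Markers of striated muscle were at or near 0 beside Cox6a2. Of 8 such markers, 6 were at 0 in WT (Tnnt2, Actc1, Cox8b, Acta1, Myh7 and Ckmt2) and 5 in IRF8KO-labelled cells, the same without Tnnt2, and the list summed to 0.539 and 0.843 CPM. Plasmacytoid dendritic cell markers summed to 0.378 and 0.58 CPM, with Klk1 and Ly6d at 0 in both. Among tissue isoforms of the respiratory chain, Cox6b2, known from testis, was the other one to reach 10 CPM, at 3.56 CPM in WT against 13.5 CPM in IRF8KO-labelled cells (1.93, 1.53 to 2.34), while its common partner Cox6b1 had 182 and 241 CPM (0.41). In the neutrophil-rich cells Cox6b2 stood at 26.1 CPM (16.4 to 39.5). The muscle isoform Cox7a1 had 3 and 11 UMIs, Cox4i2 had 1 and 0, and Cox8b, Cox8c, Cox7b2 and Ndufa4l2 had none in either library, as did the second Atp5o entry (ENSMUSG00000116933). Their common partners Cox7a2 (0.29), Cox8a (0.46) and Cox7b (0.25) were all higher.

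Cox6a2 (ENSMUSG00000030785) has 3 exons at chr7:128205435-128206387 (GRCm38, - strand, GENCODE M21). It sits inside the span of Itgad, an integrin gene on the + strand, and the longest overlap between an exon of each is 70 bases. Itgad itself gave 2 UMIs and 1 UMI. Itgax, the gene of the integrin CD11c upstream of Itgad, had 4.75 and 9.75 CPM (1.04, 0.66 to 1.42). On the other side, Armc5 stood at 52.1 and 28.3 CPM (-0.88). Of the genes within 60 kb, Cox6a2 had the highest log2 ratio among those whose interval excludes 0.

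Nuclear members with short coding sequences had higher ratios than those with long ones. Of 36 genes with under 400 coding bases, 33 were higher, and their median was 0.35. The 32 genes with 400 to 800 coding bases had a median of -0.01, the 12 with 800 to 1500 a median of -0.12, and the 4 longer ones -0.12. Other genes, without mt-encoded and cytosolic ribosomal protein genes, had medians of -0.03, -0.23, -0.30 and -0.33 in the same ranges. In the shortest range, 46.1% of the 401 other genes were higher. Across the 84 nuclear members, Spearman's correlation of the log2 ratio with coding length was -0.65, and across 8485 other genes it was -0.11. Genes are not independent replicates, and subunits of a complex share their role.

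**Figure D5:**
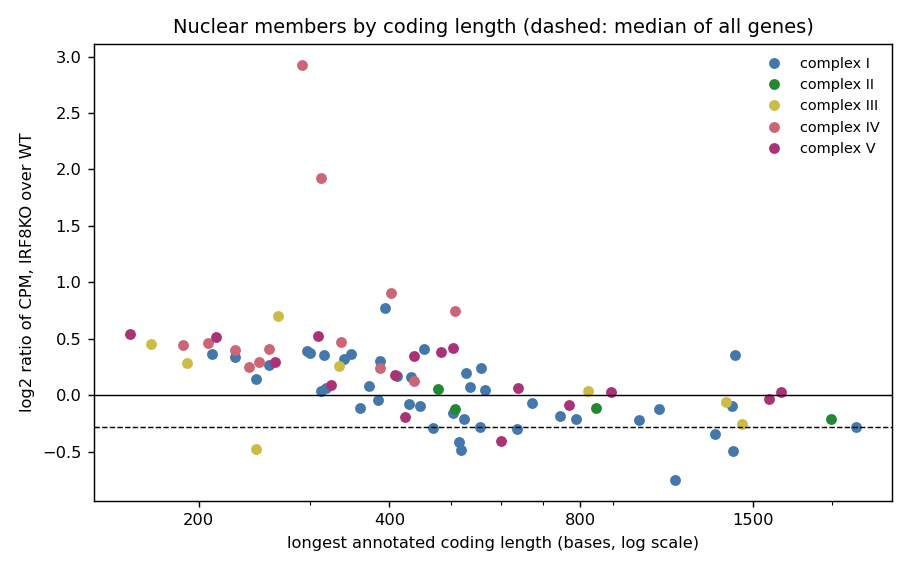
Log2 ratio of CPM, IRF8KO over WT, against the longest annotated coding length of each of the 84 nuclear members (log scale), coloured by complex, with the median of all genes dashed. Most genes under 400 bases lie above 0, and of the 12 genes with 800 to 1500 bases 3 do.

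The gene lists around the respiratory chain had lower medians than the 84 nuclear members together (0.11), stress and antioxidant genes lying nearest. Some of these lists lay above the medians of complex I core subunits (-0.21) and complex II (-0.12). Of 77 mitochondrial ribosomal protein genes, which translate the mt-encoded transcripts, 22 were higher (59 under TMM scaling), close to the background of 25.1% (47.4%), and the median was -0.10. The highest were Mrpl33 (56.0 and 110.01 CPM, 0.97) and Mrpl48 (0.47), and the lowest Mrps11 (-0.78) and Mrpl44 (-0.63). Genes for maintenance and transcription of mitochondrial DNA had a median of -0.25, with 2 of 14 higher (7 under TMM scaling). Polg2 and Polg stood at 0.16 and 0.05 with intervals that include 0, and the helicase gene Twnk and the elongation factor gene Tefm at -0.53 and -0.48. For processing and decay of mitochondrial RNA, 5 of 13 were higher and the median was -0.26. The helicase gene Supv3l1 of the mitochondrial degradosome was lowest, at 11.8 and 5.37 CPM (-1.14, -1.49 to -0.79), followed by Elac2, which cuts tRNA ends (-0.79), while Hsd17b10 (0.27) and Fastkd2 (0.14) were highest.

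The counts of the next lists stand beside 25.1% of all genes higher, or 47.4% under TMM scaling. Biogenesis regulators had a median of -0.39, with 1 of 8 higher (2 under TMM scaling). The coactivator gene Pprc1 (25.3 and 13.4 CPM, -0.92) and the GABP subunit gene Gabpb1 (30.0 and 16.7 CPM, -0.84) were lowest, and Ppard (0.02) and Esrra (-0.06) highest. Assembly factors of complex IV had a median of -0.17, with 5 of 20 higher (13 under TMM scaling), the first count at the share of all genes. Higd2a (157 and 89.7 CPM, -0.81) and Higd1a (-0.76) were lowest, and Coa7 (0.18) and Cmc1 (0.13) had intervals that include 0. Assembly factors of complexes II, III and V gave -0.23 (3 of 12 higher, 7 under TMM scaling), from Sdhaf1 (-0.44) and Sdhaf3 (-0.39) to Atpif1 (0.09) and Uqcc2 (0.11). Electron carriers gave -0.38 (2 of 12 higher, 5 under TMM scaling). There, Coq7 of ubiquinone synthesis was highest, at 11.6 and 25.1 CPM (1.11, 0.87 to 1.35), with Etfa at 0.04, and Coq10b (-1.12) and Coq9 (-0.56) lowest.

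Citric acid cycle genes had a median of -0.27, with 2 of 18 higher, against 25.1% of all genes, and 8 under TMM scaling, close to the 47.4% of all genes. Idh2 stood at 109.9 and 71.1 CPM (-0.63) and Pdhx at -0.61, while Pdhb (0.18) and Fh1 (0.05) were highest. Glycolysis genes spread widely around a median of -0.26, with 5 of 15 higher (7 under TMM scaling). Gpi1 went from 107 to 213 CPM (0.997) and Eno1 from 60.7 to 114 CPM (0.91), while the lactate exporter gene Slc16a3 (27.9 and 9.27 CPM, -1.59) and the hexokinase gene Hk3 (-1.17) were lowest. Import genes gave -0.23 (4 of 21 higher, 13 under TMM scaling), from Tomm40l (-0.73) and Timm21 (-0.53) to Timm8b (0.27) and Tomm7 (0.66). Among carriers, 3 of 12 were higher, at the share of all genes, and 7 under TMM scaling (median -0.21): the uncoupling protein gene Ucp2 had 310.3 and 525 CPM (0.76) and Vdac1 0.20, and the pyruvate carrier gene Mpc1 had 272 and 132 CPM (-1.04) and the aspartate-glutamate carrier gene Slc25a12 -1.23. Stress and antioxidant genes gave 0.01 (8 of 15 higher, 13 under TMM scaling), with Atf5 at 8.25 and 20.7 CPM (1.33), Gpx4 at 0.30, Prdx3 at -0.32 and Atf4 at 109.4 and 73.0 CPM (-0.58). Cytosolic ribosomal protein genes, given for comparison, had a median of 0.98, with 83 of 91 higher.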

How the data were processed

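Single-cell transcriptomes of 2 pools of sorted microglia were analysed. The values the authors deposited are raw UMI counts for each gene and barcode, in matrices written by software version 3.1.0 per the file headers. The submitters' processing notes name bcl2fastq, Cell Ranger 3.1, Scanpy and mm10, with no role or order. For annotation, cell calling and filters, tools were not given in the sources used here. Per the labels, the protocols also name a full-length low-input kit, while the values have the form of droplet counts. Groups came from the sample titles.

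Cells with at least 1000 UMIs, 500 genes, at most 10% mt-encoded UMIs and under 2% of UMIs in 6 neutrophil genes (Camp, Ngp, S100a8, S100a9, Lcn2, Ltf) were kept. No kept cell was near the last limit: the highest share inside was 0.232% and the lowest outside 2.36%. No doublet caller was run, and an alternative left out the 5% of cells with the most UMIs. UMIs were summed per library and scaled to CPM (numpy 2.4.6, scipy 1.17.1). With 1 library per group there is no test and no p-value. Intervals are exact 95% Poisson (CPM), conditional binomial (ratios), Clopper-Pearson (shares) and Woolf (odds ratios), and cover counting error only. A change of 1.5-fold or more was used as the call. The scripts were tested on simulated data. Named genes are all mt-encoded genes, Cox6a2 with its paralogue and other isoform pairs, and in each complex or list the 2 highest and 2 lowest ratios, with the member of a complex that had the most UMIs. Cox7a2l, the ATP synthase head genes and the neighbours of Cox6a2 were added after values were seen. Members and lists were chosen with earlier results of these data known. Of 31053 gene identifiers, 30934 matched GENCODE M21. Alternatives covered scaling, cell filters, weighting, thinning, the member minimum and a pseudocount.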

Additional observations from a re-analysis of the deposited data

Results flagged for a closer look

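The IRF8KO-labelled library held 98 cells with at least 2% of UMIs in the 6 neutrophil genes, and WT held 0 of 3304, so up to 0.0908% could have been missed (3 cells of the total). This signal lay in cells outside the comparison. The 6 genes that chose these cells took 39.0% of their UMIs and so lower every other share. Mt-encoded genes took 1.47% of all their UMIs and 2.41% of the UMIs outside the 6 genes, against 2.17% for WT and 3.93% for the remaining IRF8KO-labelled cells, so the order against WT turns on those genes (a denominator chosen after seeing the data). Nuclear members took 1.30%, or 2.14% outside the 6 genes (0.963% and 1.15% in the compared groups). The ratio of mt-encoded to nuclear UMIs, which the 6 genes do not enter, was 1.13 (2.25 and 3.41 in the compared groups). No test was possible with 1 library.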

How the results depend on the processing

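No paired analysis was possible because each group has 1 library, and there was no replicate to leave out. Cox6a2 had a log2 ratio between 2.78 and 3.27 under the alternatives run, the highest with thinned cells. Under TMM scaling the median log2 ratio was 1.04 for mt-encoded and 0.36 for nuclear genes, and values that were negative became positive by the shift of all genes: Atp5g3 0.058, Ndufaf2 0.10, Sdha 0.043, Sdhb 0.14, Sdhc 0.13, Uqcrc1 0.0028, and the medians of complex I core subunits (0.047), complex I assembly factors (0.0034) and complex II (0.13). With totals that left out mt-encoded and ribosomal protein genes, the medians were 0.925 and 0.25, and Sdhb (0.023), Sdhc (0.016) and the complex II median (0.019) turned positive. Without the 10 most abundant genes in the totals the mt-encoded median was 0.86. Nuclear genes at least 1.5-fold higher numbered 6, and 26, 12 and 9 under these 3 scalings. The share of all genes was 8.67% in the main setting and was not counted under these 3.

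The mt-encoded median and the log2 odds ratios of mt-encoded over nuclear UMIs kept their direction but changed with the cells used. With equal weight for each cell the median was 0.73, and the odds ratios were 0.52 (all complexes), 0.42 (I), 0.55 (III), 0.31 (IV) and 0.71 (V). With cells of at most 5% mt-encoded UMIs (3238 and 3860 cells), which removes cells by the outcome itself, the same 6 values, in the same order, were 0.54, 0.39, 0.29, 0.42, 0.20 and 0.57. With at least 2000 UMIs the median was 0.80, and the odds ratios were 0.62 (all) and 0.52 (I). With neutrophil-gene cells kept, these 6 values were 0.75, 0.55, 0.44, 0.58, 0.35 and 0.73. Without the 5% of cells with the most UMIs, odds ratios were 0.55 (all), 0.44 (I), 0.34 (IV) and 0.75 (V). With thinned cells the median was 0.67, Cox6a2 3.27, and the odds ratios were 0.58 (all), 0.47 (I) and 0.36 (IV), while Sdhc stood at 0.00031. The ratio of mt-Nd5 was -0.077 with equal weight, -0.089 with at most 5% mt-encoded UMIs, -0.077 without the deepest cells and -0.031 with thinned cells. The causes were not tested.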

Other observations

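IRF8KO-labelled cells thinned to 2000 UMIs were divided by their UMIs of a few state genes. Cells with 0, 1 to 2 and 3 or more UMIs of Clec12a, Mrc1 and Igf1 had mt-encoded shares of 4.03%, 3.89% and 3.71% and nuclear shares of 1.21%, 1.17% and 1.09%. Cells with 0, 1 to 2 and 3 or more UMIs of Lgals1, Cst7 and Cd72 ran the other way, with 3.803%, 4.02% and 4.36% for mt-encoded and 1.13%, 1.21% and 1.32% for nuclear genes. The 37 cells with 3 or more UMIs of MHC class II genes had 3.05% mt-encoded UMIs and 2.51 mt-encoded UMIs for each nuclear one, against 3.35 in cells without. These are ranges of a count and not cell types.

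Cox6a2 levels were read in the same ranges, with no test of a difference. They were 72.5, 65.7 and 63.1 CPM for 0, 1 to 2 and 3 or more UMIs of Clec12a, Mrc1 and Igf1, and 63.6, 74.6 and 68.2 CPM for Lgals1, Cst7 and Cd72. For MHC class II genes they were 67.7, 57.4 and 54.1 CPM, and the counting intervals within each of these 3 sets overlap. In the 220 cells with 3 or more UMIs of 6 interferon response genes it stood at 102 CPM (74.6 to 136.8), in the 613 cells with 1 to 2 at 63.6 CPM (50.3 to 79.4), and in the 3676 cells with none at 65.6 CPM (59.8 to 71.7). In the 417 cells with under 100 Apoe UMIs of 2000 it stood at 100.7 CPM (80.3 to 125), at 70.6 CPM (63.6 to 78.2) with 100 to under 200 and at 51.3 CPM (43.4 to 60.1) with 200 or more. For chemokine genes, Cox6a2 stood at 65.6 CPM (60.2 to 71.3) in the 4231 cells with none. It stood at 86.1 CPM (61.8 to 117) in the 238 cells with 1 to 2 and 112.5 CPM (51.4 to 214) in the 40 with 3 or more, with overlapping intervals.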
